A study of Homo sapiens with 24 samples.

Results

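The interval from 1 h to 3 h after actinomycin D was added to HepG2 cells, which come from a human liver carcinoma, is described here from total RNA counts. The comparison takes 4 of the 24 libraries of the series: both libraries of the control line (shCtrl) at 3 h and both at 1 h, chosen by line and time from the sample labels. Per the labels, all lines carry a stably integrated lentiviral hairpin made in HEK293T cells and were kept under puromycin (1 ug/mL). Cells of the 1 h, 3 h and 6 h libraries received 5 ug/mL of actinomycin D, and the labels give none for the 0 h libraries. The shCtrl line carries a non-specific hairpin, and the other lines carry a hairpin against SETD2 (shSETD2) or METTL14 (shMETTL14). The shCtrl libraries at 0 h and 6 h and the 1 h and 3 h libraries of the knockdown lines are used only for comparison. The series text calls the 2 libraries of a group biological replicates, but no source used here says how the cultures were separated, and a p-value therefore reflects the spread between these libraries, which may be technical.

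Actinomycin D binds DNA and blocks RNA polymerases, so after its addition a cytoplasmic transcript can only be processed or degraded. The messages lost first are typically those of immediate early genes, cytokine feedback inhibitors and short-lived transcription factors, whose 3′ untranslated regions often carry AU-rich elements or Pumilio sites that recruit deadenylases. Messages for metabolic enzymes, secreted proteins and ribosomal proteins are typically long-lived and gain share as the unstable ones disappear. The interval from 1 to 3 h follows the first hour, in which the least stable messages have already fallen.

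The 1 h libraries held 23.2 and 27.7 M counts and the 3 h libraries 24.5 and 24.0 M, so 3 counts correspond to between 0.108 and 0.129 CPM (counts per M counts of the library). Levels below are CPM scaled by TMM, a factor estimated from the genes that change least, and a level or change is always relative to the other RNA of the library. All 16 listed HepG2 and hepatocyte markers were detected. COL1A2, DCN and POSTN (fibroblasts), PTPRC, CD3E, MS4A1 and HBA2 (blood), KDR and TEK (endothelium) and NEFL, NEFM, GAL, SIX3 and TAC1 (HEK293T) were at 0 in all 4 libraries. The other markers had counts, 7 of 10 for fibroblasts, 8 of 12 for blood and 3 of 8 for HEK293T. For endothelium and stellate cells, 8 of the 10 in the count table had counts. The summed level was higher in both 3 h libraries than in both 1 h libraries for each of these lists: from between 66175 and 67087 CPM to between 85902 and 87660 CPM for HepG2 markers, 14 to 16 and then 17.3 to 19.6 CPM for fibroblasts, 1267 to 1301 and then 1732 to 1853 CPM for blood (LYZ, with 1298 and 1264 CPM at 1 h, made up nearly all), 2473 to 2582 and then 2879 to 2909 CPM for endothelium and stellate cells (mostly RELN), and 140 to 142 and then 152 to 183 CPM for HEK293T. The part of other cells in the results was not tested. In bulk libraries, fewer cells of one kind and less RNA per cell cannot be told apart.

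Of 14887 genes tested, 3155 were lower at 3 h than at 1 h (21.2% of genes) and 3614 were higher (24.3%), at an adjusted p under 0.05 in edgeR's quasi-likelihood test with Benjamini-Hochberg adjustment. The falls were large and the rises small: 2017 genes fell and 469 rose by more than 0.5 on the log2 scale, 864 fell and 63 rose by more than 1, and 130 fell by more than 2. The 3155 lower genes, chosen by this same contrast, held 15.3% and 15.4% of all counts at 1 h and 9.54% and 9.70% at 3 h. The 3614 higher genes went from 57.4% and 57.3% to 65.5% and 64.9%. With library size alone as the scale, the median change over all genes moved from 0.05 to −0.11, 4466 genes were lower and 1490 higher, so the higher share of the calls went from 53.4% to 25%. All 3155 lower genes were also lower under each of the 4 scalings that tested them, TMM among them, against 1490 of the 3614 higher genes. The other scalings all moved the median down (to 0.04 with RLE size factors, −0.005 with TMM without the mitochondrially encoded genes and −0.11). A lower call could therefore hardly be lost, and these counts do not show that falls are firmer than rises.

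**Figure D1:**
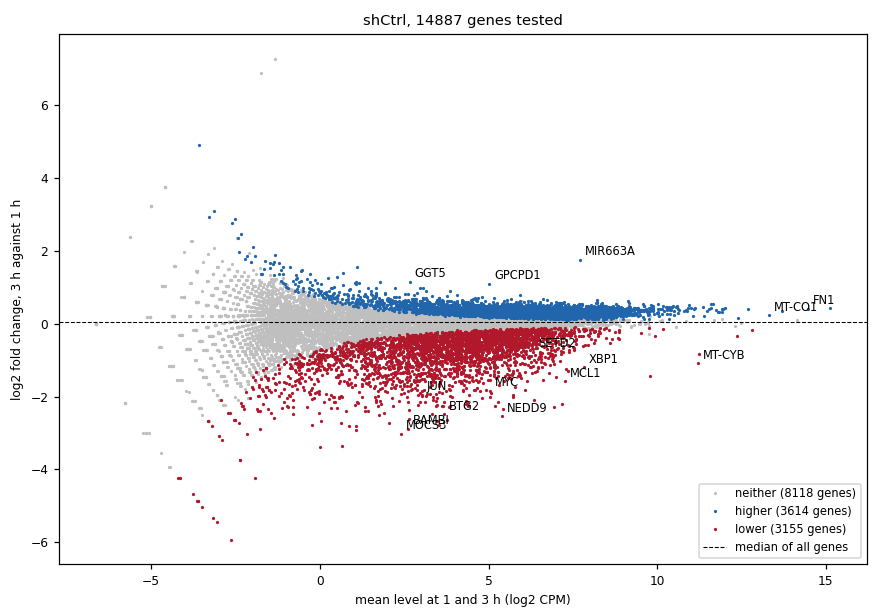
Log2 fold change from 1 h to 3 h (y axis) against the mean level at both times (x axis, log2 CPM) in shCtrl, 1 point per tested gene. Red points are the 3155 lower genes and blue points the 3614 higher genes; the dashed line is the median of all genes, 0.05, and the red cloud reaches much further from it than the blue one among genes above 5 CPM.

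Sequences are shown first for messages that fell or rose in this interval and hold the element that the falling group held more often. The Pumilio-type element TGTANATA and the AU-rich heptamer TATTTAT were searched on the mRNA strand only, in the 3′ untranslated region of 1 GENCODE 29 protein-coding transcript per gene, and can share up to 2 bases where they abut. Of 12447 tested genes with such a region, 3194 (25.7%) held TGTANATA, 3853 (31.0%) held TATTTAT and 1766 held both. Each line gives 30 bases, 5′ to 3′ on the mRNA strand with T for U, at GRCh38 coordinates; capitals mark the element.
The first 7 hold TGTANATA and come from genes that fell, and the last 2 hold it and come from genes that rose.
NEDD9, chr6:11185055-11185084, minus strand: ttatctattttTGTAGATAttttatataaa
FOXA1, chr14:37591084-37591113, minus strand: tgatccacaagTGTATATAtgaaattctcc
PHF23, chr17:7235278-7235307, minus strand: taaaactctagTGTAAATAttagcactccc
DNAJB1, chr19:14515016-14515045, minus strand: tgtggaacgtcTGTAAATAtgtttttataa
DBR1, chr3:138161519-138161548, minus strand: ttagtattataTGTAGATAtgtgatttttt
NFIL3, chr9:91409112-91409141, minus strand: catgcgaaggcTGTATATAttgaacattat
MCL1, chr1:150576664-150576693, minus strand: tttgtaaaaatTGTATATAtttttacagaa
GPCPD1, chr20:5547162-5547191, minus strand: ttgtgccatctTGTATATAggtatttttta
AGR2, chr7:16791864-16791893, minus strand: gactatggtgcTGTATATAatgctttgcag

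The next set holds the AU-rich heptamer, with 5 genes that fell followed by 3 that rose, to show that both classes hold it.
BTG2, chr1:203307528-203307557, plus strand: aaatgaagagcTATTTATatatattatttt
SMG8, chr17:59215162-59215191, plus strand: tatattgttgaTATTTATtgtaaacgtgac
PPM1D, chr17:60664780-60664809, plus strand: tgagtgtatttTATTTATttattattttgt
TOB2, chr22:41435379-41435408, minus strand: tcgcaagtcctTATTTATatgtgaggctgg
NFKBIA, chr14:35401698-35401727, minus strand: accacattttaTATTTATtgtgcttcgagt
SLC16A6, chr17:68268247-68268276, minus strand: atttaaaccgcTATTTATtattaagttatt
FN1, chr2:215361023-215361052, minus strand: ctcttacctgtTATTTATcaatttttccca
FGA, chr4:154583604-154583633, minus strand: attacaatatgTATTTATgtcttttgctat

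The 12 largest falls among called genes with a mean of 5 CPM or more at either time and no overlap between the groups were MOCS3, BAMBI, C15orf39, HPS6, DDIT4, TRIB1, NEDD9, CDC42EP2, BTG2, ZNF48, RIPK4 and MED18. Their log2 changes lay between −3.03 and −2.37, which left between 12.2% and 19.4% of the 1 h level. MOCS3 encodes an activating enzyme of molybdenum cofactor synthesis and tRNA thiolation and is a gene of 1 exon (chr20:49575363-49577820, plus strand, GRCh37 as in the deposited table). Its level was 9.36 and 9.57 CPM at 1 h and 1.37 and 0.94 CPM at 3 h. The log2 change was −3.03 ± 0.18 (SE from the fit to all 24 libraries, n = 2 libraries per time, adjusted p = 7.3e-12 in edgeR). HPS6, another gene of 1 exon, encodes a subunit of a complex for lysosome-related organelles and went from 7.39 and 7.02 CPM to 1.16 and 0.983 CPM (log2 change −2.74 ± 0.14, adjusted p = 4.8e-13).

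No source used here says whether counting used strand, so genes that overlap another are uncertain; among those named in the text are DDIT4, ZNF48, FOXA1 (TTC6), ID2 (AC011747.7), MXD1, PELO, DNAJB1, SLC16A6, HMGCS1 (CTD-2636A23.2), PDIA6 (ATP6V1C2), HERPUD1 (RP11-325K4.3), IER3 (XXbac-BPG252P9.10), ZNF503 (ZNF503-AS2), C6orf47, CTGF, FILIP1L, LYZ (RP11-1143G9.4), NR1D1, SNHG7, MT-ND4 (MT-ND4L), and the neighbours MT-ATP6 and MT-CO3. Signalling antagonists and stress genes stood among the largest falls. BAMBI, a pseudoreceptor that dampens TGF-beta and BMP signals (chr10:28966271-28971868, plus strand, GRCh37), fell from 9.79 and 11.7 CPM to 1.20 and 1.71 CPM (log2 change −2.89 ± 0.16, adjusted p = 1.2e-12). DDIT4, which inhibits mTORC1 under stress, went from 19.3 and 18.7 CPM to 3.11 and 2.82 CPM (−2.68 ± 0.14, adjusted p = 1.0e-12); it overlaps another annotated gene, RP11-442H21.2. TRIB1, a pseudokinase that steers C/EBP-alpha to degradation, went from 23.7 and 23.6 CPM to 3.74 and 3.89 CPM (−2.63 ± 0.12, adjusted p = 1.5e-13). That the groups do not overlap in these genes was a condition of their choice.

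NEDD9, a scaffold protein of focal adhesions, was the most abundant of the 12 at 1 h. It stood at 71.0 and 73.9 CPM at 1 h and at 12.4 CPM in both 3 h libraries, a log2 change of −2.54 ± 0.08 (adjusted p = 5.2e-16). BTG2, an antiproliferative protein that binds the CCR4-NOT deadenylase and whose AU-rich heptamer is printed above, went from 21.7 and 21.6 CPM to 3.95 and 3.76 CPM (−2.49 ± 0.10, adjusted p = 8.8e-15). CDC42EP2, an effector of the GTPase CDC42, and RIPK4, a kinase of keratinocyte differentiation, were low at both times, at 5.70 and 5.73 against 1.04 and 0.983 CPM for CDC42EP2 and at 5.98 and 6.65 against 1.08 and 1.24 CPM for RIPK4. MED18, a Mediator subunit, went from 9.52 and 11.3 CPM to 2.33 and 1.71 CPM. The gene C15orf39 went from 20.1 and 20.4 CPM to 3.11 and 2.78 CPM, and ZNF48, a zinc finger gene that overlaps the gene listed as ENSG00000180096, from 17.7 and 16.2 CPM to 3.07 and 2.95 CPM. Over all 12 genes, the time in which the level would halve at the rate of this interval, 2 h divided by the fall in log2 units, was between 0.661 h (MOCS3) and 0.844 h (MED18).

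**Figure D2:**
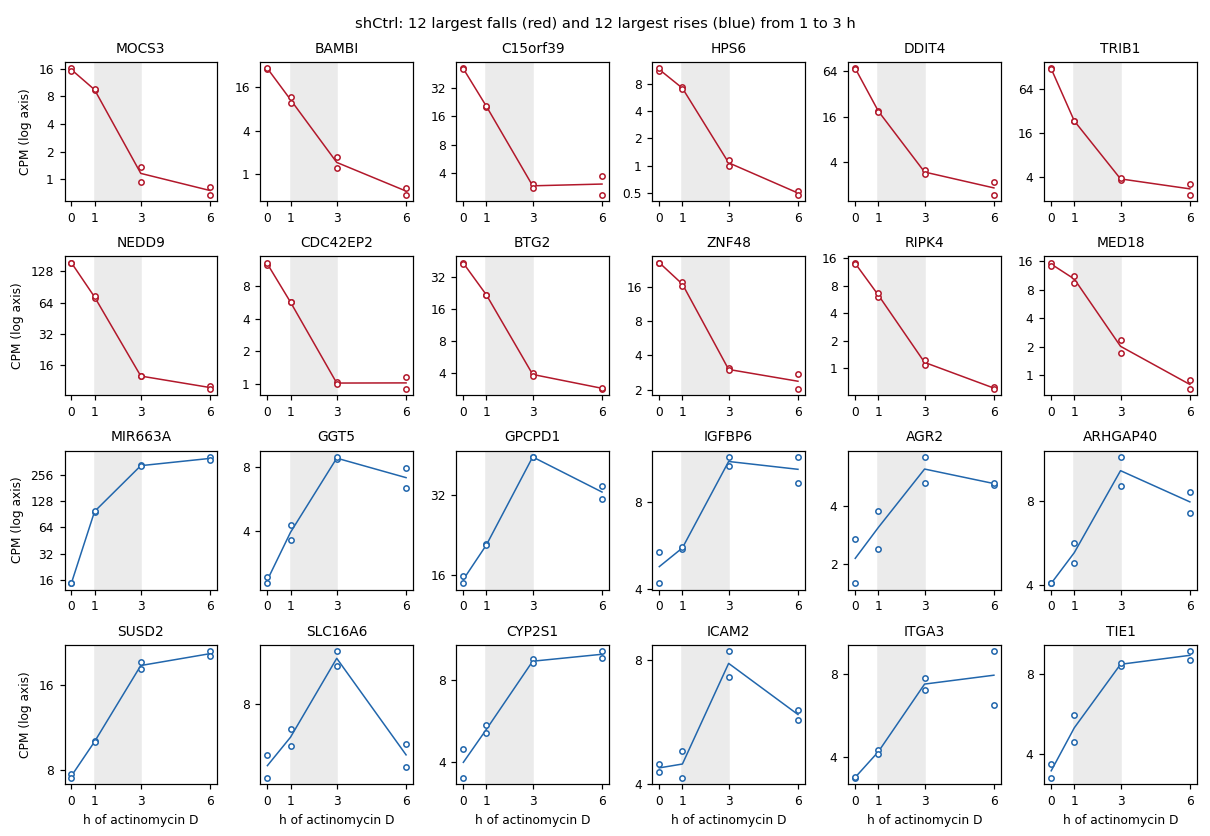
Level in each shCtrl library (points, CPM on a log axis) against hours of actinomycin D for the 12 largest falls (red) and the 12 largest rises (blue); lines join the means of 2 libraries and grey marks the interval from 1 h to 3 h. Genes were drawn on the condition that the 1 h and 3 h points do not overlap; in 7 of the 12 blue panels the mean at 6 h lies below that at 3 h.

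By the same rule, the 12 largest rises were MIR663A, GGT5, GPCPD1, IGFBP6, AGR2, ARHGAP40, SUSD2, SLC16A6, CYP2S1, ICAM2, ITGA3 and TIE1. The entry named MIR663A (chr20:26167556-26232162, minus strand, GRCh37), a long annotated locus that cannot be equated with the mature microRNA, rose from 14.9 and 14.6 CPM at 0 h to 95.7 and 98.2 CPM at 1 h and to 331 and 318 CPM at 3 h. Its change from 1 h to 3 h was 1.74 ± 0.10 on the log2 scale (adjusted p = 1.2e-10 in edgeR), a 3.34-fold higher level. Among genes with a mean of 5 CPM or more at either time it had the largest rise, while the rest of the 12 rose between 1.71-fold and 2.21-fold. Of these, GGT5, AGR2, ICAM2 and ITGA3 were below 5 CPM at 1 h and met that limit only at 3 h. GPCPD1, a glycerophosphocholine phosphodiesterase, rose from 20.8 and 20.7 CPM to 44.4 and 44.3 CPM (log2 change 1.10 ± 0.08, adjusted p = 1.6e-10), and then stood at 30.9 and 34.5 CPM at 6 h. GGT5, a gamma-glutamyl transferase family member, rose from 3.62 and 4.27 CPM to 8.64 and 8.89 CPM (1.14 ± 0.15, adjusted p = 1.9e-06).

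Several of the other rises concern secreted, surface or transport proteins at low levels. IGFBP6, an insulin-like growth factor binding protein, went from 5.51 and 5.59 CPM to 11.4 and 10.6 CPM. SUSD2, a membrane protein, went from 10.1 and 10.0 CPM to 18.3 and 19.2 CPM. AGR2, a protein disulfide isomerase family member of secretory cells, went from 2.40 and 3.77 CPM to 7.14 and 5.21 CPM, with a wide spread at both times (0.98 ± 0.21, adjusted p = 0.0006). SLC16A6, a monocarboxylate transporter family member that overlaps ARSG, rose and fell back: it stood at 5.74 and 6.59 CPM at 1 h, 10.8 and 12.1 CPM at 3 h and 4.87 and 5.86 CPM at 6 h. Its change per hour was 0.44 in the middle interval and −0.37 in the last, and the difference of −0.81 passed the test (adjusted p = 6.9e-07).

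Of the genes targeted in the other lines, SETD2, which trimethylates lysine 36 of histone H3, stood at 102 and 101 CPM at 1 h and 57.6 and 60.7 CPM at 3 h in shCtrl, a change of −0.78 ± 0.07 on the log2 scale (adjusted p = 2.4e-09). In shSETD2 it stood at 63.1 and 66.3 CPM at 1 h, below every shCtrl 1 h library. METTL14, which pairs with METTL3 to deposit N6-methyladenosine (m6A), stood at 24.4 and 24.5 CPM at 1 h and 19.4 and 22.4 CPM at 3 h in shCtrl. That change of −0.23 ± 0.10 did not pass the test (adjusted p = 0.067), but it passed in 9 of the alternatives, with adjusted p between 0.00265 and 0.0485 there. In shMETTL14 its level was 6.44 and 7.71 CPM at 1 h.

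The gene lists were read beside the median of all genes, 0.05 with TMM scaling and −0.11 with library size alone. Their counts were read beside the shares over all genes tested, 21.2% lower and 24.3% higher. Immediate early and AP-1 genes, the first transcripts induced by growth signals, had the lowest list median, −0.95 (−1.11 with library size alone), with 15 of 20 tested members lower and 0 higher. JUN, an AP-1 subunit encoded by 1 exon, stood at 70.2 and 68.4 CPM before the drug, 13.2 and 12.9 CPM at 1 h, and 3.24 and 3.46 CPM at 3 h (log2 change from 1 h −1.96 ± 0.14, adjusted p = 1.9e-10). FOSL2, another AP-1 subunit, went from 23.5 and 25 CPM to 10.4 and 8.42 CPM. JUN had already changed by −2.41 on the log2 scale in the first hour, so it fell in both intervals.

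Feedback inhibitors of growth factor and cytokine signalling fell as well. Of 23 tested ERK and cytokine feedback genes, 19 were lower and 0 higher, with a median of −0.81 (−0.97 with library size alone). ERRFI1, an inhibitor of the EGF receptor, went from 230 and 233 CPM to 94.0 and 95.5 CPM (−1.29 ± 0.05, adjusted p = 8.8e-15). DUSP16, a phosphatase of JNK and p38, went from 89.8 and 88.8 CPM to 34.4 and 33.2 CPM. Of 32 tested TGF-beta, BMP, Notch and Wnt feedback genes, 20 were lower and 0 higher (median −0.59, and −0.75 with library size alone); ID2, a dominant negative helix-loop-helix factor, went from 30.2 and 29.4 CPM to 8.01 and 8.72 CPM.

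Of 18 tested NF-kB feedback and chemokine genes, 5 were lower and 4 higher, with a median of −0.03. These shares are near the 21.2% lower and 24.3% higher over all genes. NFKBIA, the inhibitor that retains NF-kB in the cytoplasm, went from 8.26 and 8.41 CPM to 1.95 and 1.88 CPM (−2.12 ± 0.13, adjusted p = 6.7e-12). Of 24 genes of the MYC, MAX and KLF family, 18 were lower and 2 higher, with a median of −0.51. MYC went from 52.5 and 51.4 CPM to 13.9 and 15 CPM (−1.85 ± 0.08, adjusted p = 1.6e-14). Its antagonist MXD1, which overlaps SNRNP27, went from 29.1 and 29.7 CPM to 14.7 and 13.6 CPM.

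Most messages of regulators of liver identity fell in this interval, and most of those of liver secreted products rose. Of 36 liver transcription factors and nuclear receptors, 22 were lower and 1 higher, with a median of −0.54 (−0.70 with library size alone). FOXA1, a pioneer factor of hepatic genes with 2 exons, went from 59.7 and 60.6 CPM to 13 and 12 CPM (−2.27 ± 0.08, adjusted p = 1.9e-15). GATA4, another endodermal factor, went from 32 and 33.1 CPM to 7.14 and 7.86 CPM. Of 68 hepatocyte secreted proteins, 49 were higher and 2 lower, with a median of 0.33 (0.17 with library size alone, and 32 of the 49 were higher under all 4 scalings). SERPINA1, alpha-1 antitrypsin, went from 5747 and 5706 CPM to 7603 and 7592 CPM (0.41 ± 0.04, adjusted p = 2.6e-09), and FGA, the fibrinogen alpha chain, from 1094 and 1077 CPM to 1441 and 1394 CPM.

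Several regulators of mRNA decay fell in this interval. Of 13 ZFP36, BTG and TOB decay regulators, 8 were lower and 2 higher, with a median of −0.78 (−0.94 with library size alone). TOB2, which like BTG2 recruits deadenylases, went from 52.3 and 53.4 CPM to 13.5 and 12.6 CPM (−2.02 ± 0.07, adjusted p = 2.3e-15). Of 65 genes of deadenylation, decapping, nonsense-mediated decay and the exosome, 18 were lower and 18 higher, with a median of −0.01, near the 21.2% lower and 24.3% higher over all genes. SMG8, a regulator of the SMG1 kinase, fell furthest of these 65, from 23.2 and 24.7 CPM to 5.36 and 4.66 CPM (−2.26 ± 0.09, adjusted p = 1.8e-14). PELO, a ribosome rescue factor lying inside ITGA1, went from 17.1 and 18.4 CPM to 5.77 and 5.85 CPM.

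Among the 22 m6A writers, readers and erasers, 12 were lower and 4 higher, with a median of −0.22. Over all genes, 21.2% were lower and 24.3% higher. YTHDF2, the reader that directs m6A-marked mRNA to deadenylation, went from 53.7 and 52.0 CPM to 13.5 and 14.9 CPM (−1.90 ± 0.08, adjusted p = 8.8e-15). YTHDF1 went from 135 and 131 CPM to 59.0 and 58.1 CPM, and METTL16, a methyltransferase of U6 small nuclear RNA and MAT2A, from 51.9 and 52.3 CPM to 32.1 and 33.6 CPM. Of 50 chromatin and histone-modifying enzymes, 35 were lower and 5 higher (median −0.50). CHD1, a chromatin remodeller, went from 72.5 and 73.7 CPM to 26.2 and 26.0 CPM, and the acetyltransferases EP300 and CREBBP went from 155 and 166 CPM to 63.9 and 62.6 CPM and from 91.4 and 102 CPM to 37.7 and 39.1 CPM. These are genes of 36, 31 and 31 exons, so a fall was not limited to genes with few exons.

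Of 174 tested zinc finger genes, 166 of them on chromosome 19, 75 were lower and 4 higher, with a median of −0.44 in this interval. Their median was −0.86 in the first hour alone, and 72 of them had a less negative change per hour after 1 h, past the threshold of that test. Over all 14887 genes tested, 407 (2.73%) moved in that direction. The median in the last interval was 0.01. Of 29 p53 targets and apoptosis regulators, 16 were lower and 2 higher (median −0.25), against 21.2% lower and 24.3% higher over all genes. PPM1D, the phosphatase that switches p53 signalling off, went from 21.9 and 25.3 CPM to 4.86 and 4.87 CPM, and MCL1, a short-lived inhibitor of apoptosis, from 236 and 229 CPM to 75.5 and 79.2 CPM (−1.59 ± 0.06, adjusted p = 2.1e-15). Of 21 cytosolic heat shock genes, 10 were lower and 5 higher, the latter near the 24.3% over all genes. DNAJB1, a co-chaperone of HSP70 that overlaps TECR, went from 132 and 134 CPM to 29.8 and 32.3 CPM (−2.10 ± 0.07, adjusted p = 4.2e-16). Of 21 circadian clock genes, 9 were lower and 1 higher; NFIL3, a repressor of the clock output, went from 37.8 and 36.2 CPM to 11.2 and 9.96 CPM.

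Lists of housekeeping and metabolic genes gained share together. Of 79 cytosolic ribosomal protein genes, 62 were higher and 0 lower, with a median of 0.36 (0.20 with library size alone, and 48 were higher under all 4 scalings). These genes have many processed copies, and no source used here says how reads shared with them were counted. RPL12 went from 172 and 176 CPM to 250 and 251 CPM (0.53 ± 0.05, adjusted p = 9.0e-09). Of 73 nuclear-encoded oxidative phosphorylation genes 62 were higher, 34 of them under all 4 scalings, and 1 lower (median 0.34, and 0.18 with library size alone). Of 56 matrix, adhesion and cytoskeleton genes 43 were higher, 30 of them under all 4 scalings, and 2 lower (median 0.34, and 0.18 with library size alone). FN1, fibronectin, was among the most abundant messages, at 19084 and 19892 CPM at 1 h and 25977 and 25562 CPM at 3 h. AMOTL2, a junction protein, was an exception in that list, from 18 and 20.5 CPM to 7.35 and 6.75 CPM.

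Metabolic lists held members of both classes. Of 30 genes of cholesterol synthesis, uptake and control, 14 were higher, 7 of them under all 4 scalings, and 4 lower (median 0.27, and 0.11 with library size alone). HMGCS1, the synthase upstream of HMG-CoA reductase, rose from 269 and 256 CPM to 375 and 388 CPM and stood at 256 and 277 CPM at 6 h. In lipid and fatty acid metabolism 23 of 41 genes were higher, 14 of them under all 4 scalings, and 2 lower; SCD, the stearoyl-CoA desaturase, rose from 1264 and 1294 CPM to 1752 and 1779 CPM, and PLIN2, which coats lipid droplets, fell from 332 and 330 CPM to 235 and 223 CPM. Among 30 endoplasmic reticulum chaperones and unfolded protein response genes, 18 were higher, 12 of them under all 4 scalings, and 4 lower. The chaperone PDIA6 went from 1041 and 1025 CPM to 1409 and 1427 CPM, while XBP1, a transcription factor of that response, went from 319 and 316 CPM to 139 and 137 CPM (−1.20 ± 0.04, adjusted p = 1.2e-15).

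For proliferation genes the list medians were near that of all genes. Over all genes tested, 24.3% were higher and 21.2% lower. Of 42 DNA replication genes 11 were higher and 14 lower, with a median of 0.10 that turned to −0.06 with library size alone; CDC25A, a phosphatase that starts S phase, went from 38.5 and 35.9 CPM to 18.6 and 20.1 CPM. Of 48 mitosis genes 5 were higher and 14 lower (median −0.03). Of 34 genes of the ATF4 response 20 were higher, 7 of them under all 4 scalings, and 9 lower (median 0.18, and 0.02 with library size alone). SESN2, a leucine sensor, went from 40.9 and 42.8 CPM to 12.4 and 10.7 CPM.

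**Figure D3:**
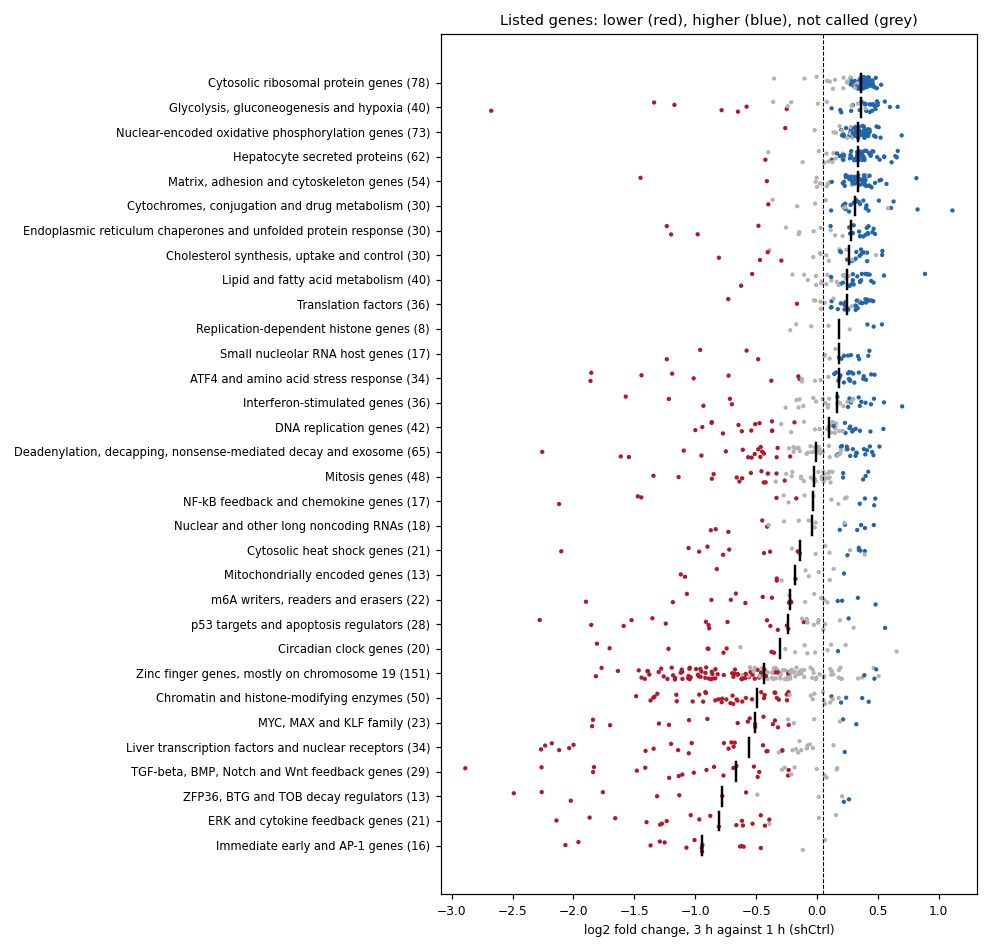
Log2 fold change from 1 h to 3 h for each listed gene at 1 CPM or more in shCtrl (points; red lower, blue higher, grey not called), with the number of members drawn in brackets and a bar at their median; the dashed line is the median of all genes, 0.05. Signalling and transcription factor lists spread to the left of the line, and ribosomal, oxidative phosphorylation and secreted protein lists form narrow clusters to its right.

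Mitochondrially encoded transcripts diverged. Of 13 tested, 6 were lower and 1 higher, with a median of −0.18 (−0.34 with library size alone). The shares over all genes were 21.2% lower and 24.3% higher. Each of the 6 messages most abundant per length at 1 h came from the mitochondrial genome: per kilobase, MT-ND4 led at 13812 and 13902 RPKM, followed by MT-CO2, MT-CO3, MT-ND1, MT-CO1 and MT-ATP6. MT-CYB, the cytochrome b subunit of complex III, went from 3238 and 3241 CPM to 1496 and 1561 CPM (−1.08 ± 0.04, adjusted p = 2.6e-15), and then to 634 and 579 CPM at 6 h. MT-ND2, of complex I, went from 3069 and 3110 CPM to 1666 and 1828 CPM (−0.82 ± 0.05, adjusted p = 2.2e-11). MT-CO1, of complex IV, went from 9359 and 9428 CPM to 10802 and 11109 CPM (0.22 ± 0.03, adjusted p = 4.5e-06), a rise that did not pass with library size alone (0.06, adjusted p = 0.126). MT-CO3, at 5773 and 5717 CPM against 5721 and 5886 CPM, was not called (0.01, adjusted p = 0.80) and had the opposite sign, past the threshold, with library size alone (−0.15, adjusted p = 0.0051). The ratio between these subunits within a library does not depend on the scale, so MT-CYB and MT-ND2 lost share against MT-CO1 whatever scale was used. TMM without the mitochondrially encoded genes gives no value for them.

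Exon structure differed between the falls and the rises. Of the tested genes, 12608 had a matched GENCODE 29 protein-coding transcript. The 755 of these that fell by more than 1 on the log2 scale had a median of 4 exons and 2.43 exon junctions per kilobase of coding sequence, against 9 exons and 6.44 junctions over all matched genes and 10 exons and 7.58 junctions in the higher genes. Single-exon genes made up 9.01% of those 755 (68 genes) and 0.859% of the higher genes (30 of 3494), against 2.31% of all matched genes. Among the 291 single-exon genes tested, 119 were lower (40.9%) and 30 higher (10.3%), and among the 554 genes of 2 exons 252 were lower (45.5%) and 52 higher (9.39%). Between 6 and 8 exons, 489 of 2445 genes were lower (20%) and 742 higher (30.3%).

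By 5 classes of equal size in junction density, the median log2 change rose step by step from −0.38 in the lowest class through −0.04, 0.10 and 0.17 to 0.23 in the highest. The share of genes lower fell from 47.2% to 7.10% and the share higher rose from 7.85% to 43.5% between the outer classes. Across the 12608 genes, Spearman's rho between junction density and the change was 0.41, a description over genes, which are not independent replicates. It was 0.44 over the 9540 genes at 5 CPM or more at 1 h, 0.40 without single-exon genes, and 0.39 without genes named ZNF or HIST. Length of coding sequence, which the density contains, had a rho of −0.20 and exon number alone 0.11. In the 1 h and 3 h libraries of the knockdown lines, which share no library with shCtrl, rho with junction density was 0.42 (shSETD2) and 0.40 (shMETTL14). In shCtrl it was also positive in the first hour (0.36) and from 3 to 6 h (0.25), intervals that share the 1 h or the 3 h libraries. The relation was thus not particular to the middle interval.

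**Figure D4:**
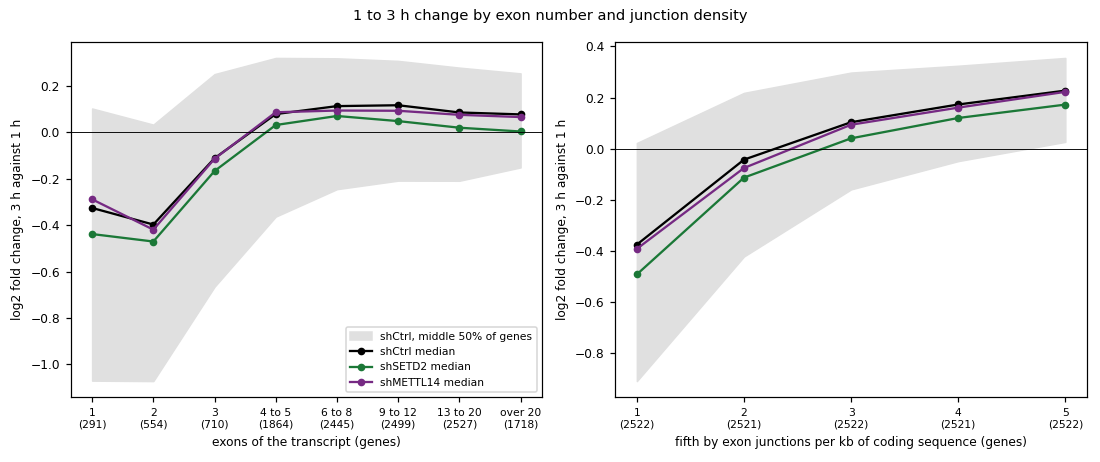
Median log2 fold change from 1 h to 3 h by number of exons (left) and by 5 equal classes of exon junctions per kilobase of coding sequence (right), with gene numbers in brackets, for shCtrl (black), shSETD2 (green) and shMETTL14 (purple); grey spans the middle 50% of genes in shCtrl. The medians of all 3 lines are lowest at 1 and 2 exons and climb from the lowest to the highest class.

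Elements in the 3′ untranslated region marked the falls less strongly. TGTANATA was present in 37.2% of the genes that fell by more than 1 and 37.5% of those that fell by less, against 18.2% of the higher and 24.4% of the uncalled genes. TATTTAT was present in 37.6% and 41.3% of the falls, 23.1% of the higher genes and 31.0% of the uncalled genes. Long regions hold more of any short element, so genes were compared within classes of length: between 501 and 1000 bases, the 387 genes with TGTANATA had a median change of −0.08 and the 1948 without it 0.11. For TATTTAT in the same class the medians were −0.00 (469 genes) and 0.10 (1866 genes). In all 5 length classes the median of genes with either element was below that of genes without it.

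The median change was lower in genes with more Pumilio-type elements, without matching for length of the region. The median change was 0.11 in 9253 genes without it, −0.03 in 2093 genes with 1 site and −0.12 in 1101 genes with 2 or more. For TATTTAT the medians were 0.11, −0.01 and −0.03. In the first hour, which shares the 1 h libraries, the medians for TATTTAT were 0.07, −0.04 and −0.13, and for TGTANATA 0.06, −0.05 and −0.13. These shares and medians are descriptions without a test, and base composition was not held fixed. Length was not held fixed in the medians by number of sites. Spearman's rho with the 1 to 3 h change was −0.16 for length of the region and −0.17 for the number of TGTANATA sites. A part of the number of sites apart from length was not tested.

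The course of a fall was compared between intervals as change per hour. From 0 to 1 h to 1 to 3 h, 407 genes (2.73%) moved to a less negative or more positive change per hour and 174 (1.17%) moved the other way. The intervals share the 1 h libraries, so an error in those libraries moves both. Without a 1 h library the counts were 188 or 202 and 37 or 52, and without a 0 h library they were 268 or 305 and 81 or 103.

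Among genes lower at 3 h, the 6 that slowed most were NFKBIA, DUSP6, ID1, IER3, ZNF503 and FEM1C. NFKBIA lost 3.37 log2 units in the first hour (−3.37 per h) and then −1.06 per h, a difference of 2.31 ± 0.13 (adjusted p = 5.4e-11). DUSP6, an ERK phosphatase, went from −2.67 to −0.83 per h, and ID1, a relative of ID2, from −2.27 to −0.45 per h. By 3 h these messages had nearly reached a floor: DUSP6 stood at 2.78 and 2.65 CPM at 3 h and 2.95 and 3.43 CPM at 6 h, and ID1 at 17.2 and 14.4 CPM and then 15.9 and 16.5 CPM. For all 6, the difference passed the threshold under each alternative tried.

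The opposite course, a slow first hour and a steep fall after it, was largest in C6orf47, DBR1, MOCS3, HPS6, PHF23 and MED18. DBR1, the lariat debranching enzyme, stood at 14.7 and 14.5 CPM at 0 h, 12.2 and 11.7 CPM at 1 h and 3.11 and 3.03 CPM at 3 h, so its change per hour went from −0.29 to −0.98, a difference of −0.68 ± 0.13 (adjusted p = 0.0015). C6orf47, a gene of 1 exon that overlaps its antisense gene C6orf47-AS1, stood at 17.5 and 18, 15.5 and 15.1, and 3.95 and 4.06 CPM, with −0.21 and −0.97 per h. PHF23, a PHD finger protein, went from −0.45 to −1.12 per h. All of these kept the sign under each alternative, and DBR1 passed the threshold in each of 14. MOCS3 passed in 10 of 14 and lost the call without either 1 h library (adjusted p = 0.075 and 0.13), without the second 3 h library (adjusted p = 0.06) and with limma (adjusted p = 0.26). MED18 passed in 11 of 14, with a largest adjusted p of 0.35 without the second 1 h library. HPS6 passed in 12 of 14, and PHF23 and C6orf47 passed in 14 of 15 each, losing the call with limma (adjusted p = 0.10 and 0.073).

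The last interval was compared in the same way. From 1 to 3 h to 3 to 6 h, 1251 genes (8.4%) moved to a higher change per hour and 1107 (7.44%) to a lower one; the intervals share the 3 h libraries. Without a 3 h library these counts were 722 or 824 and 455 or 467, and without a 1 h library the genes with a lower change numbered 711 or 637. Of the 864 genes that fell by more than 1, whose choice on the middle interval favours a steep change there, the median change per hour was −0.55 in the first hour, −0.69 from 1 to 3 h and −0.15 from 3 to 6 h. For all 3155 lower genes the medians were −0.28, −0.33 and −0.13 per h.

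The half-lives in the authors' deposited table, which the series text says were derived from 1, 3 and 6 h relative to untreated cells, were set beside these classes. They rest in part on the same libraries and are a description. The median in that table was 2.02 h for 781 genes that fell by more than 1, 3.24 h for 3035 lower genes, 9.39 h for 4319 uncalled genes and 33.6 h for 329 higher genes, so most of the 3614 higher genes have no value there. For NEDD9 the authors' deposited table gives 1.33 h, for MYC 1.42 h and for XBP1 1.67 h.

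The same interval was then read in the knockdown lines, whose libraries are separate from those of shCtrl. In shSETD2, 3781 genes were lower (25.4%) and 2957 higher (19.9%), and in shMETTL14, 3486 were lower (23.4%) and 3730 higher (25.1%). Of the 3155 genes lower in shCtrl, 2840 were also lower in shSETD2, which is 90% of the shCtrl list and 75.1% of the shSETD2 list, and 2773 in shMETTL14 (87.9% and 79.5%). Of the 3614 higher genes, 2549 were higher in shSETD2 (70.5% and 86.2%) and 2952 in shMETTL14 (81.7% and 79.1%). In all 3 lines 2647 genes were lower and 2389 higher. Of the 864 genes that fell by more than 1 in shCtrl, 732 were lower in both knockdown lines.

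A test of the difference between lines called few genes. The 1 to 3 h change differed from that of shCtrl for 42 genes in shSETD2 (0.282%), of which 39 fell further or rose less than in shCtrl, and for 52 genes in shMETTL14 (0.349%), of which 47 did. The median difference over all genes tested was itself negative, −0.06 in shSETD2 and −0.02 in shMETTL14. How the split by sign depends on scaling was not tested. At an unadjusted p under 0.05, 1180 and 1080 genes differed. The counts depended on scaling, at 21 with RLE size factors and 20 with TMM without the mitochondrially encoded genes for shSETD2, and 23 with the latter for shMETTL14, and leaving out 1 library of those compared gave between 17 and 29 genes for shSETD2 and between 19 and 27 for shMETTL14.

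CTGF passed this test in both lines. Both differences subtract the same shCtrl libraries, so an error in those libraries moves both. This message, for a matricellular growth factor and known as a target of the coactivator YAP, stood at 165 and 168 CPM at 1 h and 152 and 156 CPM at 3 h in shCtrl (−0.12 ± 0.05, adjusted p = 0.057, and past the threshold in 9 alternatives, such as −0.28 with library size alone). It stood at 255 and 262 CPM at 1 h and 138 and 135 CPM at 3 h in shSETD2, and at 151 and 146 CPM and 74.4 and 75 CPM in shMETTL14. The difference from shCtrl was −0.81 ± 0.07 in shSETD2 (adjusted p = 1.2e-06) and −0.88 ± 0.07 in shMETTL14 (adjusted p = 1.0e-07). CTGF overlaps the gene RP11-69I8.3. In shCtrl it then fell to 58.1 and 58.0 CPM at 6 h, so its fall came in the last interval.

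CYR61 and ANKRD1, also known as YAP targets, fell further in the knockdown lines. CYR61, a relative of CTGF, stood in the same order: it went from 37.9 and 36.2 CPM to 23.2 and 25.6 CPM in shCtrl and from 31.4 and 30.2 CPM to 5.96 and 5.61 CPM in shMETTL14 (difference −1.81 ± 0.11, adjusted p = 1.2e-09). ANKRD1, an ankyrin repeat cofactor, went from 114 and 116 CPM to 83.2 and 89.9 CPM in shCtrl and from 79.7 and 84.4 CPM to 36.3 and 36.2 CPM in shSETD2 (difference −0.76 ± 0.07, adjusted p = 2.5e-06). ERRFI1 differed by −0.65 ± 0.08 in shSETD2. These genes were named by the size of p in each line and not as a list of targets. Whether YAP targets as a group differ between the lines was not tested.

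Stress and metabolic messages were the other part of this group. TARS, the cytosolic threonyl-tRNA synthetase, went from 286 and 281 CPM to 254 and 256 CPM in shCtrl, a change of −0.15 ± 0.06 that lost its call when any 1 of the 4 libraries was left out (adjusted p between 0.0792 and 0.129), and from 100 and 109 CPM to 56.1 and 58.7 CPM in shSETD2 (difference −0.71 ± 0.08, adjusted p = 5.0e-05). XBP1 went from 193 and 195 CPM to 40.6 and 40.7 CPM in shMETTL14 (difference −1.06 ± 0.06, adjusted p = 4.3e-10). HERPUD1, an endoplasmic reticulum degradation factor, and FILIP1L, which overlaps CMSS1, differed in shMETTL14 by −0.63 ± 0.07 and −1.18 ± 0.10. For each of these named genes the difference passed the threshold in all 16 alternatives.

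**Figure D5:**
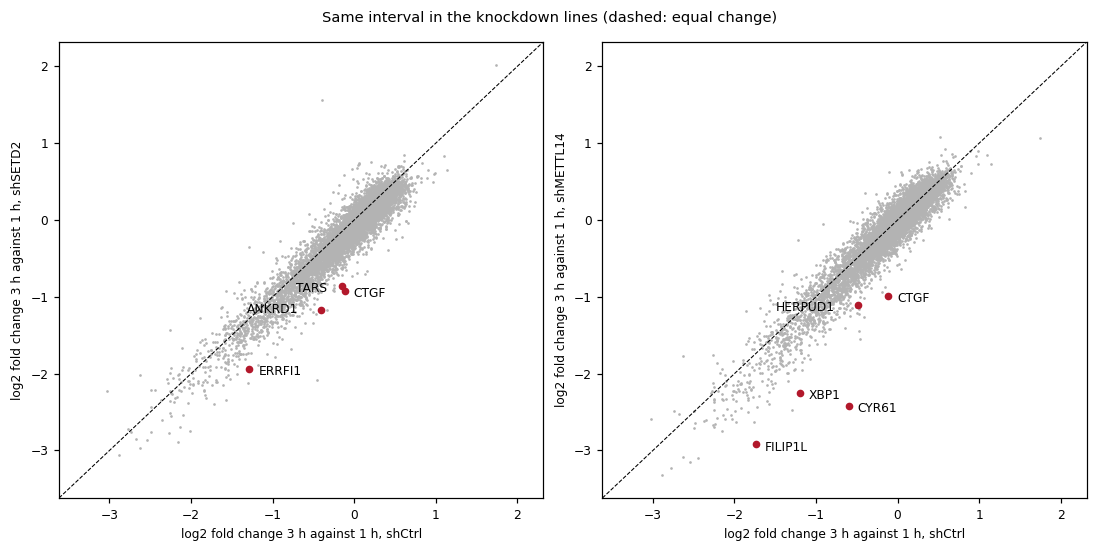
Log2 fold change from 1 h to 3 h in shSETD2 (left, y axis) and shMETTL14 (right, y axis) against that in shCtrl (x axis) for 9994 genes at 5 CPM or more in shCtrl; the dashed line marks equal change and red points the labelled genes, taken from those with the smallest p for the difference. The cloud follows the line, and the red points lie below it, with CTGF near 0 in shCtrl and near −1 in both knockdown lines.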

How the data were processed

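Per the labels, total RNA was extracted from HepG2 cells and ERCC spike-in RNA was added; the count table holds 0 ERCC entries, so no spike-in scaling was run. Gene-level counts were used as the authors deposited them. The submitters' processing notes name TopHat, cutadapt, HTSeq 0.6.1p1 and GRCh37, and no source used here gives settings, annotation release or strand use. The deposited RPKM values equal counts divided by exon kilobases and by the library total (in M), and served for levels between genes and for an alternative test on log2(RPKM + 0.1). A second deposited table gives half-lives in hours, a score per gene from the authors.

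Of 34618 genes, 14887 passed edgeR's filterByExpr. All 24 libraries (12 groups, 12 residual degrees of freedom) were fitted in edgeR 4.0.16 with R 4.3.3 (quasi-likelihood F test, robust, two-sided, TMM, Benjamini-Hochberg at 0.05; biological coefficient of variation 5.04%), and changes per hour and differences between lines were contrasts of that fit. The SE given after ± is the size of the log2 change divided by the square root of F in that fit. It draws on the spread within all 12 groups and not on the 4 shCtrl libraries alone. The script was tested on simulated data. Gene IDs were matched to GENCODE 29 (GRCh38), 1 transcript per gene by APPRIS and coding length. Features and lists are described by counts and medians without tests.

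Named genes were SETD2, METTL14 and MYC; the 12 largest changes each way at 5 CPM or more with no overlap between groups; the members of each list with the smallest p (3 at most); the 6 largest differences each way in change per hour among lower genes; the 5 smallest p per line for the difference between lines; and the 6 highest RPKM values at 1 h. Not all of them are printed, and some are not reported here. The 37 lists, the rules and the comparison were chosen with earlier results of these data known. Symbols turned into day numbers (29 entries) were replaced by gene IDs. Alternatives were RLE factors, library size alone, TMM without mitochondrially encoded genes, no or a stricter filter, DESeq2 1.42.0, limma 3.58.1, subsets of libraries and a replicate block. Every value column had a sample (0 without one).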

Additional observations from a re-analysis of the deposited data

Results flagged for a closer look

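The 1 to 3 h change differed between a knockdown line and shCtrl, by the test of the difference itself in edgeR, for 15 named genes; values are the knockdown line minus shCtrl in log2 units, so a negative value means a larger fall or smaller rise than in shCtrl. In both lines it differed for CTGF (−0.81 in shSETD2 and −0.88 in shMETTL14), CYR61 (−0.74 and −1.81), ANKRD1 (−0.76 and −0.61), ERRFI1 (−0.65 and −0.56), HERPUD1 (−0.45 and −0.63) and XBP1 (−0.31 and −1.06). TARS (−0.71), HSPA1B (−0.82, a gene with a near-identical copy) and IER3 (0.93) passed in shSETD2 and not in shMETTL14. Those that passed in shMETTL14 and not in shSETD2 were FILIP1L (−1.18), NEDD9 (−0.60), EP300 (−0.37), YTHDF1 (−0.40), FDFT1 (−0.28) and NR1D1 (0.96). Whether these differ between the knockdown lines was not tested. Both differences subtract the same 1 h and 3 h shCtrl libraries, so a result in both lines is not independent support.

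IER3 stood at 7.05 and 8.13 CPM at 1 h and 5.84 and 5.96 CPM at 3 h in shSETD2, against 22.8 and 21.4 CPM and 9.55 and 8.50 CPM in shCtrl. NR1D1, which overlaps THRA, stood at 7.23 and 6.04 CPM and 5.80 and 5.28 CPM in shMETTL14, against 6.84 and 7.08 CPM and 3.24 and 2.73 CPM in shCtrl.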

How the results depend on the processing

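Under library size alone 1490 genes were higher in shCtrl, and under limma on log2(RPKM + 0.1) 1350, against 3614; counts of lower genes in shCtrl stayed within 1.5 times of 3155 under every alternative run. Genes with a lower change per hour after 3 h numbered 494 with library size alone, 687 with TMM without the mitochondrially encoded genes and 443 with limma, against 1107. With the 8 shCtrl libraries alone, 275 genes had a more negative change per hour after 1 h, against 174. Genes higher in the knockdown lines numbered 1629 (shSETD2) and 1620 (shMETTL14) with library size alone, and 1505 and 1423 with limma. Differences between shSETD2 and shCtrl numbered 21 with RLE factors, 25 with library size alone, 20 with TMM without the mitochondrially encoded genes, 83 without the filter and 19 with limma, against 42; for shMETTL14 they numbered 23 with TMM without the mitochondrially encoded genes, 33 with the stricter filter and 28 with limma, against 52. The cause was not tested. MT-CO3 reversed to −0.15 with library size alone and with limma (−0.146 in both).

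Leaving out 1 of the libraries compared gave between 2731 and 2893 higher and 2625 and 2744 lower genes in shCtrl, 2161 to 2603 and 3110 to 3269 in shSETD2, and 2821 to 2892 and 2942 to 3045 in shMETTL14. Leaving out a library outside the 1 h and 3 h shCtrl groups gave between 2733 and 3641 higher and between 3097 and 3481 lower genes in shCtrl. The lone library left in a group is then assumed to vary like the other groups. In change per hour, 37 to 155 genes turned lower and 188 to 375 higher after 1 h, and 722 to 1140 turned higher and 455 to 985 lower after 3 h. Differences from shCtrl numbered 17 to 29 in shSETD2 and 19 to 27 in shMETTL14.

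Same-numbered 1 h and 3 h libraries of shCtrl did not deviate together (r = −0.018 over 9995 genes), and shCtrl pairs of times ranged from −0.19 to 0.37 (3 h and 6 h). In the other lines the 1 h and 3 h libraries did deviate together (r = 0.32 in shSETD2 and 0.21 in shMETTL14, where all 6 pairs of times were above 0.1). In shSETD2, r was 0.65 for 1 h and 6 h and 0.35 for 3 h and 6 h, and between −0.05 and 0.003 for pairs with 0 h. The numbers are thus not shown to pair the shCtrl libraries, but may pair those of shMETTL14 and the drug-treated ones of shSETD2. With the replicate block within each line, 3960 genes were higher and 3277 lower, and differences from shCtrl numbered 64 in shSETD2 and 63 in shMETTL14; 1377 genes had a higher and 1585 a lower change per hour after 3 h. In shSETD2, 3269 were higher and 3936 lower, and in shMETTL14 4068 and 3602. Of 143 named genes, 2 gained and 0 lost the call under the block. At an adjusted p under 0.01, 2616 genes were higher and 2536 lower. Depth limits genes near 3 counts per library, where fold changes are unstable; LAMB3 in the matrix list is such a call.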

Other observations

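Noncoding and host transcripts did not move as a block. For comparison, 24.3% of all genes tested were higher and 21.2% lower. Of 18 tested host genes of small nucleolar RNAs, 9 were higher, 3 of them under all 4 scalings, and 4 lower, with a median of 0.19 (0.03 with library size alone). SNHG7, which overlaps FAM69B, went from 23.5 and 22 CPM to 12.4 and 11 CPM (log2 change −0.96 ± 0.10, adjusted p = 2.9e-08 in edgeR). Of 23 nuclear and other long noncoding RNAs, 7 were higher, 0 of them under all 4 scalings, and 5 lower (median −0.02, and −0.18 with library size alone). KCNQ1OT1, an imprinted antisense transcript of KCNQ1, went from 88.9 and 96.6 CPM to 52.8 and 59.3 CPM. By GENCODE 29 type, 9.72% of 597 tested lincRNA genes were lower and 4.69% higher, against 22.9% and 27.7% of 12629 protein-coding genes; expression level, which limits calls, was not matched between the types.

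Of 42 interferon-stimulated genes, 12 were higher, 5 of them under all 4 scalings, and 6 lower (median 0.17, and 0.01 with library size alone). This stands beside 24.3% higher and 21.2% lower over all genes. B2M, the light chain of class I molecules, went from 257 and 248 CPM to 337 and 350 CPM, and IFIT5 from 6.13 and 6.49 CPM to 2.82 and 2.61 CPM. Of 36 translation factors, 26 were higher, 11 of them under all 4 scalings, and 2 lower (median 0.25, and 0.09 with library size alone). EEF1A1, which has many processed copies, went from 741 and 730 CPM to 1003 and 962 CPM. In 40 genes of cytochromes, conjugation and drug metabolism, 22 were higher, 9 of them under all 4 scalings, and 1 lower (median 0.29, and 0.13 with library size alone). CYP24A1, the vitamin D hydroxylase, went from 48.3 and 48.0 CPM to 71.0 and 75.8 CPM. Of 48 genes of glycolysis, gluconeogenesis and hypoxia, 25 were higher, 19 of them under all 4 scalings, and 7 lower (median 0.29, and 0.13 with library size alone). The insulin receptor substrate IRS1 in that list went from 35.6 and 36.0 CPM to 13.2 and 15.2 CPM, while the glucose transporter SLC2A3 went from 263 and 271 CPM to 377 and 378 CPM. Of 24 replication-dependent histone genes, 3 were higher, 1 of them under all 4 scalings, and 0 lower (median 0.22, and 0.07 with library size alone). Most of these messages lack a poly(A) tail.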
